A study of Mus musculus with 2 samples.

Results

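The miR-30 family is a set of related microRNAs (miRNAs) that in the mouse comes from 6 hairpin genes, Mir30a, Mir30b, Mir30c-1, Mir30c-2, Mir30d and Mir30e. Its members here were the 6 genes of those names among 2202 annotated miRNA hairpins (GENCODE release M21), and a sequence was counted for a member when it had at least 16 nt and lay exactly, on the sense strand, inside that hairpin. The data were small RNA reads from whole testes of C57BL/6 mouse embryos on embryonic day 16.5, wild-type (WT) or Hsp90α knockout (KO). HSP90α, the product of Hsp90aa1, is a chaperone that helps client proteins fold and form complexes, and the design asks which small RNAs of the fetal testis change when it is missing. There was 1 library for each genotype, made from 20 pooled testes, and the kind of knockout allele is not given in the sources used here. Because whole testes were used, fewer cells of a type and less RNA per cell cannot be told apart, and with 1 library per genotype no KO/WT ratio has a replicate check.

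The WT library held 6409305 reads, of which 2523084 matched a hairpin, and for the KO library these numbers were 5589326 and 2561491. Levels below are reads per 1000000 hairpin-matching reads (RPM). The gonadal miRNAs Mir202 and Mir140 were both read, at a summed 2805 RPM in WT and 2982 in KO. The list of germ cell miRNAs, of which 9 of 10 were found in the annotation under those names, summed to 640 RPM in WT and 860 in KO. In each library 2 of its genes had no read. The listed Mir292a was not found by that name, and a Mir292 at 156 RPM in WT and 173 in KO is outside this sum. The blood list, with 3 of 4 found, stood at 313 and 250.2 RPM. Its Mir142a was not found by that name, and a Mir142 at 444 RPM in WT and 365 in KO is outside this sum. Mesenchyme and smooth muscle markers summed to 61366 RPM in WT and 62534 in KO. Within that list Mir199a-1 and Mir199a-2 had KO/WT ratios of 1.32, against 0.811 for Mir143, 0.882 for Mir145a and 0.963 for Mir214. The endothelial Mir126a stood at 5133 and 5147 RPM, and the list of epithelium, mesonephros and ducts at 1087 and 1049. Most of this last sum was Mir192, at 913 RPM in WT and 889 in KO. The KO/WT ratios of the rest of that list went both ways. They were 0.715 for Mir200a, 0.728 for Mir200b, 0.985 for Mir200c, 1.03 for Mir429, 1.10 for Mir194-1 and Mir194-2, and 1.52 for Mir141. The part of these cell types in the values below was not tested. Sense fragments of Hsp90aa1 itself had 2 reads in WT and 10 in KO. This is not the direction of the label, but degraded mRNA in a small RNA library does not measure the transcript, so the genotypes below are those of the libraries as labelled and were not checked by the target gene.

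A miRNA hairpin is cut first in the nucleus by Drosha and then in the cytoplasm by Dicer, which leaves a duplex of its 5p and 3p arms. One strand of the duplex stays in an Argonaute protein and finds targets mainly through its seed, the bases at positions 2 to 8 from the 5′ end. miR-30 miRNAs are made in many tissues and are known for repressing, among other targets, the transcription factor gene Snai1 and the autophagy gene Beclin 1. The 5p strand is usually the one that is kept.

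The sequences explain how the members can be told apart. RefSeq held mature sequences for 4 of the 6 members (build GRCm38.p6). The 5p forms are shown first, with that of Mir384, an X-linked gene with the same seed, and capitals mark the seed:
miR-30a-5p: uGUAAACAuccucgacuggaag
miR-30e-5p: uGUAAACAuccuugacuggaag
miR-30c-5p: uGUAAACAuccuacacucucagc
miR-384-5p: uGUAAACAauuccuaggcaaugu
The 3p forms, with capitals again at positions 2 to 8, fall into 2 pairs:
miR-30a-3p: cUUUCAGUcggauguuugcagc
miR-30e-3p: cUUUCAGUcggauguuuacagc
miR-30c-1-3p: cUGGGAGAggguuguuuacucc
miR-30c-2-3p: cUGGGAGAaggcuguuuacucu
All 5p forms shown have the seed GUAAACA. Counted from 1 at the 5′ end, miR-30a-5p and miR-30e-5p differ at 1 base (C13U, the base of miR-30a first), and their 3p forms also differ at 1 base (G18A). The 5p form of Mir30c-1 and Mir30c-2 is the same sequence, so its reads cannot be divided between these genes and are given as Mir30c. The 3p forms of that pair differ at 3 bases (A9G, C12U and U22C, the base of miR-30c-2 first), which separates the genes.

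The 6 genes lie in 3 pairs (GRCm38). Mir30a is at chr1:23272269-23272339 and Mir30c-2 at chr1:23291701-23291784, both on the plus strand with their starts 19432 bp apart. Mir30a overlaps no other annotated gene there, and Mir30c-2 lies in an exon of the long noncoding RNA gene Gm27028. Mir30c-1 (chr4:120769534-120769622) and Mir30e (chr4:120772606-120772697) lie on the minus strand with their start coordinates 3072 bp apart. Both are in introns of Nfyc, which encodes a subunit of the transcription factor NF-Y. Mir30b (chr15:68337415-68337510) and Mir30d (chr15:68341208-68341289) have start coordinates 3793 bp apart, also on the minus strand. Mir30d lies in an exon of the long noncoding RNA gene Gm20732 and overlaps an exon of Gm37296, and Mir30b overlaps an exon of Gm26621 in part, with none of its reads inside that transcript. The gene models Mir30f, antisense to Mir30e, and Mir384 were not members.

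The family had 64595 reads in WT and 66519 in KO, or 25602 and 25969 RPM. These came from 133 distinct sequences, of which 90 were read in both libraries, and no member sequence lay in the hairpin of another family. Of the 133, 45 sequences with 19316 reads in WT and 19059 in KO also lie in the exons of Gm27028 or Gm20732 that hold Mir30c-2 and Mir30d. The family took 2.56% of hairpin-matching reads in WT (95% Wilson interval 2.54 to 2.58) and 2.60% in KO (2.58 to 2.62). The KO/WT ratio was 1.01 (exact 95% interval 1.003 to 1.03). All intervals cover counting error only and treat each read as a separate observation. PCR copies of 1 molecule are not separate, so the intervals can be too narrow even for that error.

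The 5p arms held nearly all of these reads. miR-30a-5p was the highest, at 9643 RPM in WT and 9817 in KO. miR-30e-5p followed at 7526 and 7949 RPM, and the 5p reads of Mir30d stood at 5202 and 5074. Mir30a and Mir30e, from different chromosomes, thus made up 68.6% and 69.7% of the family with both arms counted. The 5p reads shared by Mir30c-1 and Mir30c-2 reached 2394 RPM in WT and 2310.4 in KO. Those of Mir30b, the lowest 5p arm, reached 309.9 and 347 RPM, although its gene neighbours Mir30d. The order of the 5 arms was the same in both libraries, and the intervals of neighbours did not overlap.

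The 3p arms were much lower and followed another order. Mir30e 3p had 291 RPM in WT and 256 in KO, below Mir30b 5p in both libraries, although their intervals overlapped in WT. Mir30a 3p, from the member with the most 5p reads, had 102 and 81.6 RPM, and Mir30c-1 3p 62.6 and 65.2. Mir30c-1 3p was above Mir30c-2 3p, at 27.3 and 21.1 RPM, with intervals that did not overlap in either library, so of this pair with a single 5p sequence the copy beside Mir30e gave more 3p reads. Mir30d 3p stood at 32.5 RPM in WT and 35.5 in KO, and its interval overlapped that of Mir30c-2 3p in WT but not in KO. Mir30b 3p was the lowest arm, with 28 reads in WT and 26 in KO. A further 1 read in WT and 3 in KO lay in the 3p arms of both Mir30a and Mir30e and could not be divided.

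**Figure D1:**
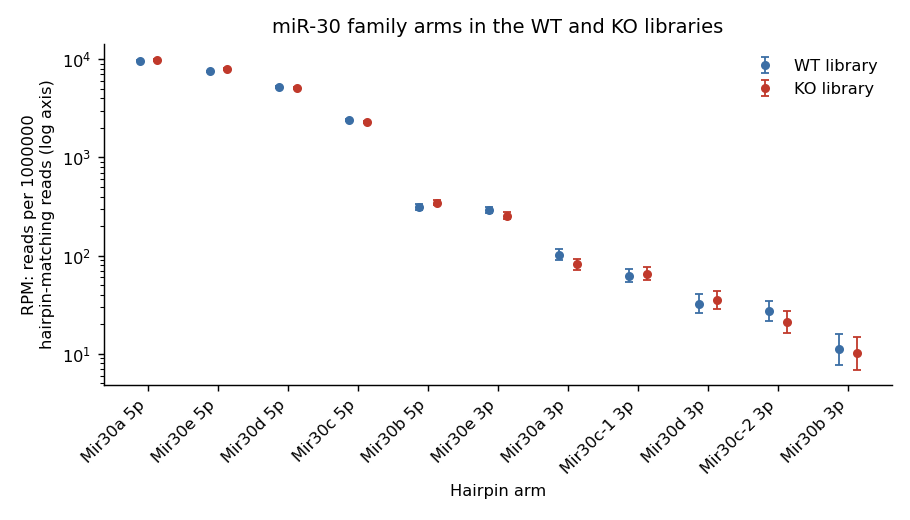
RPM (log axis) of the 11 member arms, with 1 point per library (blue, WT; red, KO) and 95% Wilson intervals as bars. The 5p arms run from 9643 down to 309.9 RPM in WT, and the WT and KO points of an arm lie close to each other.

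No member arm passed a fold of 1.5 between the libraries. Of all whole hairpins or hairpin groups with at least 100 reads, 5.24% did, a share that was not counted by arm. Mir30b 3p, with 28 reads in WT and 26 in KO, lies under that minimum. Among the 5p arms the KO/WT ratios were 1.02 for Mir30a (1.0003 to 1.04), 1.06 for Mir30e (1.04 to 1.08), 0.975 for Mir30d (0.952 to 0.999), 0.965 for Mir30c (0.931 to 1.0005) and 1.12 for Mir30b (1.02 to 1.24). Mir30b and its genomic neighbour Mir30d lay on opposite sides of 1 on this scale. Relative to all reads of the library both were above 1, at 1.31 (1.18 to 1.44) and 1.14 (1.11 to 1.16). The intervals of these 5p arms did not overlap on either scale. By distinct sequences they were at 1.48 (0.318 to 7.44) and 1.18 (0.567 to 2.46), and both of these intervals include 1. Of the 3p arms, Mir30e had a ratio of 0.879 (0.790 to 0.978) and Mir30a 0.798 (0.662 to 0.961). Neither stayed below 1 beyond its interval in every setting. Mir30e 3p was at 1.02 (0.920 to 1.14) relative to all reads, 1.97 (0.648 to 6.59) by distinct sequences and 0.920 (0.832 to 1.02) with 1 mismatch allowed, and Mir30a 3p at 0.929 (0.770 to 1.12), 0.984 (0.381 to 2.49) and 0.907 (0.776 to 1.06). The ratios of the other 4 were 1.04 for Mir30c-1 (0.833 to 1.30), 1.09 for Mir30d (0.802 to 1.49), 0.771 for Mir30c-2 (0.530 to 1.12) and 0.915 for Mir30b (0.515 to 1.62), and each of these intervals includes 1. Taking all reads as the total multiplies every ratio by 1.16, a shift of 0.22 on the log2 scale.

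Hairpins that share at least 50% of the reads of one were joined. Over all hairpins or hairpin groups with at least 100 reads over WT and KO combined, 12 of 229 passed the fold of 1.5 (5.24%). All of the 12 were lower in KO, but not all are single miRNA genes. Mir144 (ratio 0.575), Mir495 (0.652) and Mir668 (0.664) were among them, and so were joined groups of Gm gene models. The group of Gm22002 and 75 more had a ratio of 0.311, and 74.5% of its WT reads had 24 to 33 nt. The family forms 5 of these 229 units and 0 passed. The unit ratios ran from 0.965 for Mir30c to 1.11 for Mir30b with a median of 1.02, beside a median of 0.976 over all units, whose middle 50% lay between 0.882 and 1.08. In abundance Mir30a ranked 13, Mir30e 18, Mir30d 21, Mir30c 32 and Mir30b 86 of 229.

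**Figure D2:**
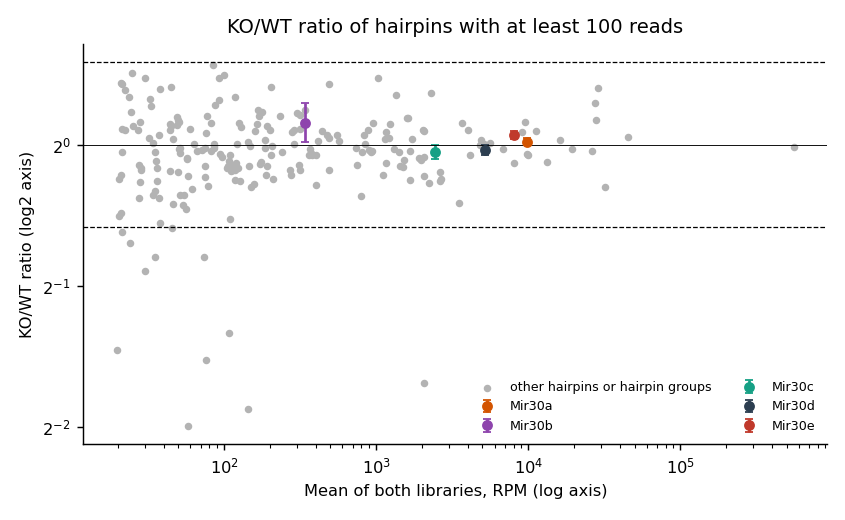
KO/WT ratio (log2 axis) against the mean level of both libraries (log axis) for 229 hairpins or hairpin groups, with the 5 units of the miR-30 family in colour, their exact 95% intervals as bars and dashed lines at 1.5-fold in either direction. The 5 units lie between 0.965 and 1.11, while 12 of the other points fall below the lower line.

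Other broadly made families gave similar or more distant ratios. The miR-26 family, at 17470 RPM in WT against 17745 in KO, had a KO/WT ratio of 1.02 (1.003 to 1.03), and the miR-181 family, at 34785 and 33862 RPM, one of 0.973 (0.964 to 0.983). For let-7, at 10301 RPM in WT against 9112 in KO (ratio 0.885), the interval (0.869 to 0.900) did not overlap that of miR-30. The miR-15/16 family had a ratio of 0.967 (0.945 to 0.989), and miR-29, with 73 and 92 reads, 1.24 (0.903 to 1.71). Mir384 had 2 reads in each library. Mir30f had none, which allows a level of up to 1.19 RPM in WT and 1.17 in KO, the level of 3 reads.

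The preference for the 5p arm differed between members. In these shares and their test, the 1 WT read and 3 KO reads that lie in the 3p arms of both Mir30a and Mir30e count for each of them, so that Mir30a has 259 and 212 3p reads and Mir30e 735 and 658. The 3p arm made up 1.05% of Mir30a reads in WT (0.933 to 1.19) and 0.836% in KO (0.731 to 0.956). Mir30d was lower still, at 0.621% in WT (0.501 to 0.770) and 0.695% in KO (0.567 to 0.853). The other units had larger shares. In Mir30e the share was 3.73% in WT (3.47 to 4.0) and 3.13% in KO (2.9 to 3.37), in Mir30c 3.62% and 3.6%, and in Mir30b 3.46% and 2.84%. Thus Mir30a and Mir30e, whose mature strands differ by 1 base in each arm, had 3p shares whose intervals lay well apart in both libraries. The median share of the less abundant arm over 210 hairpins with both arms read was 4.44% in WT and 5.12% in KO, above every member.

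Whether the arm share differed between the libraries was tested with Fisher's exact test (two-sided) on the reads of each arm, which compares these 2 libraries and not the genotypes. After Benjamini-Hochberg adjustment over 210 hairpins, 5 had an adjusted p under 0.05 (2.38%), and 1 of the 5 family units was among them. This was Mir30e, with a 3p share 0.596 percentage points lower in the library labelled KO (adjusted p = 0.0404, Fisher's exact test with Benjamini-Hochberg adjustment). When reads with 1 mismatch were also counted, its adjusted p by the same exact test was 0.0888. The exact test gave adjusted p = 0.160 for Mir30a, whose 3p share was 0.217 percentage points lower in KO, and 1 for Mir30b, Mir30c and Mir30d.

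**Figure D3:**
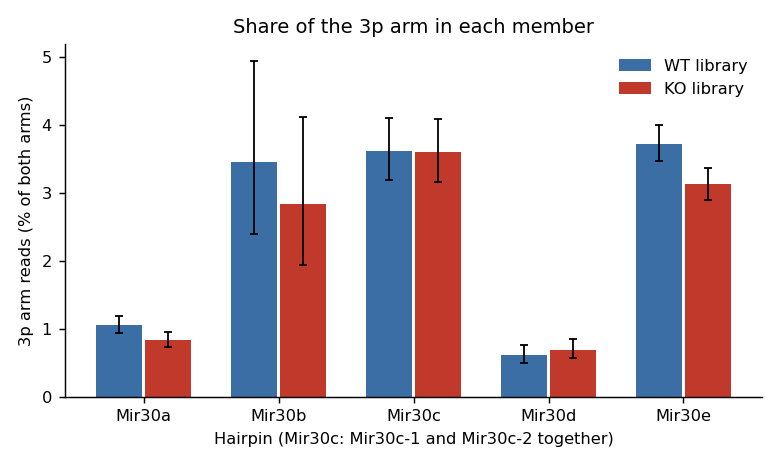
Share of 3p reads among the reads of both arms (%) for the 5 units, with bars for the WT (blue) and KO (red) libraries and 95% Wilson intervals. Mir30a and Mir30d lie near or below 1%, and Mir30b, Mir30c and Mir30e between 2.84% and 3.73%.

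The members also differed in the length of their 5p reads. The commonest reads of Mir30a, Mir30c, Mir30d and Mir30e were 24 nt long, and those of Mir30b 22 nt. The forms that carry the difference between Mir30a and Mir30e are shown here as read, with the seed in capitals:
miR-30a-5p, 24 nt: uGUAAACAuccucgacuggaagcu
miR-30a-5p, 20 nt: uGUAAACAuccucgacugga
miR-30a-5p, 16 nt: uGUAAACAuccucgac
miR-30e-5p, 24 nt: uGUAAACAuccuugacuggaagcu
miR-30e-5p, 20 nt: uGUAAACAuccuugacugga
miR-30e-5p, 16 nt: uGUAAACAuccuugac
Reads of 24 nt made up 86.5% of Mir30e 5p reads in WT (86.0 to 87.0) and 86.9% in KO (86.5 to 87.4). In Mir30c they were 84.9% and 85.1%, in Mir30d 57.6% and 56.7%, and in Mir30a 50.1% (49.4 to 50.7) and 48.9% (48.2 to 49.5). Only 2.69% of Mir30b 5p reads in WT and 3.48% in KO had this length, and 93.2% and 91.9% had 22 nt. The exact 22-nt RefSeq form of miR-30a-5p had 502 reads in WT and 545 in KO, against 12182 and 12286 for the 24-nt form, and that of miR-30e-5p 136 and 144 reads, against 16420 and 17692.

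A 20-nt form, shorter by 4 bases at the 3′ end, set Mir30a apart. It held 34.6% of Mir30a 5p reads in WT (34.0 to 35.2) and 36.5% in KO (35.9 to 37.1). In Mir30d the 20-nt reads were 14.4% in WT (13.8 to 15.0) and 15.2% in KO (14.6 to 15.9), and in Mir30e 1.5% (1.34 to 1.68) and 1.55% (1.39 to 1.73). The forms shown above end in the same letters in Mir30a and Mir30e, so the share of 20-nt reads differed between 2 sequences that are alike from position 14 on. For Mir30c there were 2 and 3 such reads, and for Mir30b none in either library. The WT and KO intervals of the 20-nt share overlapped for Mir30d and Mir30e but not for Mir30a, and they reflect read counts only. Relative to hairpin-matching reads, Mir30a 20-nt reads had a KO/WT ratio of 1.07 (1.04 to 1.10) and its 24-nt reads one of 0.993 (0.969 to 1.02).

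A small class of 16-nt reads appeared in Mir30a, Mir30d and Mir30e alone among the members. It had 496 reads in WT and 563 in KO for Mir30a, 974 and 1006 for Mir30d, and 618 and 633 for Mir30e, while Mir30b and Mir30c had none of this length in either library. A count of 0 allows up to 3 reads, or 0.384% and 0.337% of the Mir30b 5p arm in WT and KO and 0.0497% and 0.0507% of the Mir30c arm. Reads that stopped directly before the letters TGGAA of the hairpin made up 2.03% and 2.23% of the Mir30a 5p arm, 7.43% and 7.75% of Mir30d, and 3.25% and 3.11% of Mir30e. Among 110 hairpin arms with at least 1000 reads, 3 held these letters after at least 16 bases of their commonest read, and all 3 were these members (searched on the sense strand of the hairpin only). The 3′ adaptor of the library kit begins with the same letters, and the part of adaptor clipping in these reads was not tested. The family gave 36.8% of all 16-nt hairpin-matching reads in WT and 42.4% in KO.

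**Figure D4:**
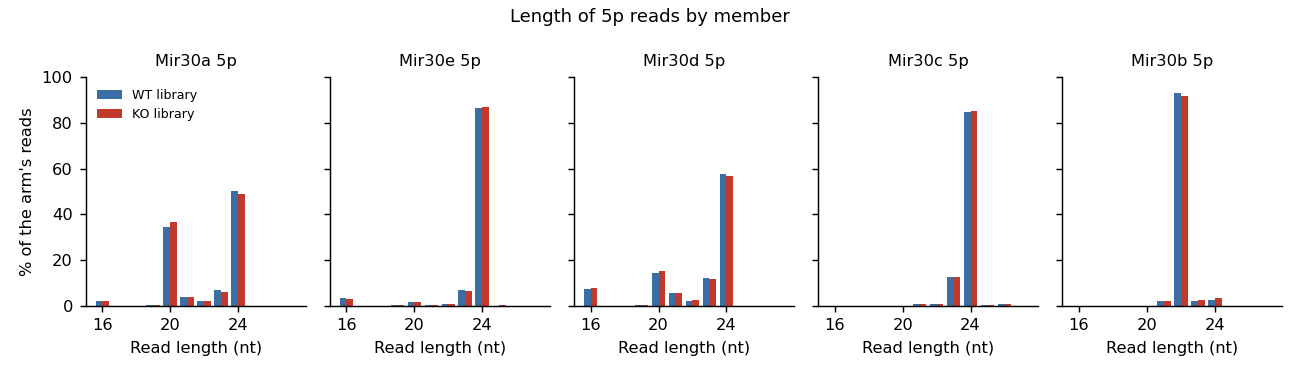
Read length (nt) of the 5p reads of each member as a share of the arm's reads (%), with bars for the WT (blue) and KO (red) libraries. Mir30c and Mir30e peak at 24 nt, Mir30a has peaks at 20 and 24 nt, Mir30b peaks at 22 nt, and the libraries nearly coincide.

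With 24 nt as the main length, most family reads lay in the class of 24 to 33 nt, the length of PIWI-interacting RNAs (piRNAs), the germline RNAs that act against transposons. The class held 64.1% of family reads in WT (63.8 to 64.5) and 63.9% in KO (63.6 to 64.3), against 6.34% of hairpin-matching reads outside the family in each library. By unit the share was 83.4% in WT and 84.4% in KO for Mir30e, 82.7% and 82.8% for Mir30c, 57.3% and 56.4% for Mir30d, 49.6% and 48.5% for Mir30a, and 2.59% and 3.38% for Mir30b. The median over 229 units was 0.621% in WT and 0.661% in KO. Mir30e ranked 4 of 229 in WT and 2 in KO, and Mir30c 6 and 4. Such long reads were not particular to the family, since Mir146b (84.3% in WT), Mir182 (77.9%) and Mir541 (66.2%) had them too. Mir10b, with 1410287 reads in WT and 6.03% of them in this class, weighs most in the value outside the family. The family supplied 21% of all hairpin-matching reads of 24 to 33 nt in WT and 21.2% in KO.

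The family reads of 24 to 33 nt and the other RNAs of this class had different ratios. In the family nearly all of the class was 24 nt long, 41313 of 41424 reads in WT and 42429 of 42526 in KO. The lengths of the 2 sets were not matched. The family reads of this class stood at 16418 RPM in WT against 16602 in KO, a KO/WT ratio of 1.01 (0.998 to 1.03). Reads of 24 to 33 nt outside hairpins, from any source, were at 702700.0 RPM in WT against 448413 in KO, a ratio of 0.638 (0.637 to 0.640). The family reads of 20 to 23 nt had a ratio of 1.02 (0.999 to 1.04) on the same scale.

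**Figure D5:**
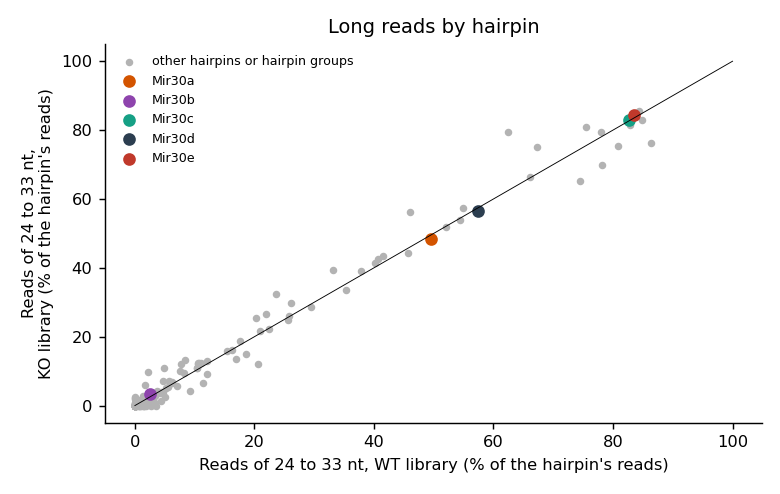
Share of reads of 24 to 33 nt in the KO library against that in the WT library (% of the reads of each hairpin) for 229 hairpins or hairpin groups, with the 5 units of the miR-30 family in colour and a line of equal shares. Mir30c and Mir30e lie above 80%, Mir30d and Mir30a near 50%, and Mir30b at 2.59% in WT and 3.38% in KO.

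The 5′ end, which sets the seed, was nearly fixed in the 5p arms and less so in some 3p arms. The commonest start held 99.1% of Mir30a, 98.4% of Mir30e and 99.9% of Mir30d 5p reads in WT, with 99%, 98.4% and 99.9% in KO. It held all but 3 WT reads of Mir30c and all but 1 KO read of Mir30b. Mir30e had 276 reads in WT and 270 in KO that started 1 base later, so that the seed was shifted by 1 base. In Mir30a 3p, 86 of 258 reads in WT (33.3%) and 58 of 209 in KO (27.8%) started 1 base later, and in Mir30d 3p 17.1% and 16.5%. Mir30e 3p, with the same first 17 bases as Mir30a 3p, had 3.54% and 3.05% of reads at that start. The commonest 5p read of every member began with U and the commonest 3p read with C, and 15 to 18 nt of loop lay between these reads.

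Reads with the family seed at positions 2 to 8 came almost entirely from the members. There were 67745 such reads in WT and 69651 in KO, of which 92.6% and 92.9% matched a member exactly, and a further 6.09% and 5.94% matched one with 1 mismatch. Other hairpins accounted for 1 read in WT and 2 in KO.

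Some reads carried 1 to 3 bases at the 3′ end that the hairpin does not have, after at least 18 bases that it has. There were 4298 in WT and 4451 in KO, or 6.24% (6.06 to 6.42) and 6.27% (6.10 to 6.45) of the family with these reads added. Tails of U alone were the most frequent, at 57.2% of them in WT and 60.4% in KO, and tails of A alone followed at 26.2% and 23.6%. The members differed in the kind of tail. Mir30e 5p had 1043 U tails and 111 A tails in WT, and 1202 and 103 in KO. Mir30d 5p had more A tails than U tails, with 555 and 439 in WT and 518 and 458 in KO. On the 3p arms of Mir30a, 19.4% of reads had a tail in WT (15.4 to 24.1) and 25.6% in KO (20.9 to 31.0), and on those of Mir30e 14.2% (12.0 to 16.6) and 17.6% (15.1 to 20.4), with intervals that overlap between the libraries. Such reads are not in the levels above, and a tail cannot be told apart here from a sequencing error at the last base.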

How the data were processed

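Small RNA libraries of WT and Hsp90α KO testes were made with the TruSeq Small RNA kit and sequenced on a MiSeq. The authors clipped adaptors, and the deposited values are the raw read count of each sequence in each library. Clipping decides where a read ends, so it bears on the lengths given here. Those of 16 nt or more were looked up, without mismatch, in GENCODE M21 miRNA transcripts and assigned to the 5p or 3p arm by the side of the hairpin's midpoint on which their own middle falls. Counts were divided by all hairpin-matching reads. Ratios have exact (Clopper-Pearson) and shares Wilson 95% intervals. Arm shares were compared with Fisher's exact test and Benjamini-Hochberg adjustment (Python 3.11.15, scipy 1.17.1). The ratio intervals, fold calls and arm share test were tried on simulated counts. The matching to hairpins and the arm assignment were not part of that trial. Calls used a fold of 1.5 and at least 100 reads. Named genes were the 6 members, Mir384, 5 other families, marker miRNAs and Hsp90 genes. The members and lists were chosen with earlier results of these data known. Coordinates are those of the GRCm38 annotation. Alternatives changed the total, length, mismatch, read and arm rules.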

Additional observations from a re-analysis of the deposited data

How the results depend on the processing

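With 1 library per genotype nothing could be left out, and no paired analysis was possible because each genotype has 1 library. The family KO/WT ratio was 1.18 (1.17 to 1.19) relative to all reads and 0.9996 (0.989 to 1.01) without Mir10b in the total. With each distinct sequence counted once it was 1.24 (0.942 to 1.62), an interval that includes 1. In this last setting 3 member arms passed the fold of 1.5, against 0 otherwise, and each rests on few sequences. The family share was 2.51% in WT and 2.54% in KO from 20 nt, 1.44% and 1.78% by distinct sequences, and 2.46% and 2.504% with 1 mismatch. The arm share call on Mir30e was lost with 1 mismatch (0 units called) and could not be made by distinct sequences (0 called), where no unit reaches 100. The Mir30c 3p difference, which passed no test, changed sign to 0.0356 percentage points with 1 mismatch; the cause was not tested. Hairpins past the fold numbered 1 at 1000 reads, 6 at a fold of 2 and 21 relative to all reads. Of the single arm ratios under alternatives, 73 stayed within and 14 left their intervals.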
